A study of Mus musculus with 10 samples.

Results

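The suppressor of cytokine signalling (SOCS) family comprises Cish, Socs1, Socs2, Socs3, Socs4, Socs5, Socs6 and Socs7, and its members were taken by gene identifier from the table of read counts. All 8 members were found among the 39488 rows of the table, 23382 of which carried an NCBI gene identifier. The libraries were bulk RNA-seq of peritoneal macrophages, the phagocytes drawn into the abdominal cavity by thioglycollate and collected on the third day, from C57BL/6 mice of 8 weeks. The 5 ox-LDL libraries came from cells primed with lipopolysaccharide (LPS, 100 ng/ml), the bacterial ligand of Toll-like receptor 4 (TLR4), and then given oxidized low-density lipoprotein (ox-LDL, 100 µg/ml), the modified lipoprotein that macrophages take up in atherosclerotic lesions, for 16 h. The 5 control libraries were labelled untreated and carried the same strain and age. The labels therefore set LPS plus ox-LDL against neither agent, and the effects of the 2 agents cannot be told apart. The wording of the study leaves it unclear whether the controls also received LPS, and the extraction notes call the cells of every library ox-LDL-treated.

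SOCS proteins are negative feedback regulators of cytokine signalling. A cytokine brings together receptor chains that carry Janus kinases (JAKs), the kinases phosphorylate STAT transcription factors, and the STATs enter the nucleus and switch on target genes, several SOCS genes among them. Each SOCS protein has an SH2 domain that binds a phosphorylated tyrosine and a SOCS box that recruits elongins B and C with Cullin-5, a ubiquitin ligase that marks bound proteins for degradation. SOCS1 and SOCS3 in addition carry a kinase inhibitory region that blocks JAK activity directly. In macrophages SOCS1 is best known for restraining interferon signalling, and SOCS3 for restraining signals through gp130, the shared receptor chain of the IL-6 family.

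Of the 8 members, 4 rose in the ox-LDL libraries (Cish, Socs1, Socs2 and Socs3), 1 fell (Socs6), and 3 (Socs4, Socs5 and Socs7) did not pass the test, which was edgeR's quasi-likelihood test with a call at a Benjamini-Hochberg adjusted p below 0.01 over all 12654 genes tested. Over those genes, 9.4% were called higher and 5.35% lower by the same rule. The share of higher among all calls was 63.7% and fell to 42.6% when FPKM values were tested on a log scale instead. Cish, Socs1 and Socs2 were tested only because of their ox-LDL reads, so the count of members higher is partly set by the filter. With no filter 4 of 8 were called higher, beside 1212 of 29267 genes. With at least 10 counts in every library it was 1 of 5, beside 919 of 10625 genes. The median log2 fold change of the 8 members was 1.87, and that of all genes tested was 0.10. No member lay near 1.87, which falls in the gap between Socs7 (0.58) and Socs2 (3.15). By a stricter rule that also asked for an absolute log2 fold change above 2, the same 4 members were higher, against 4.78% of all genes, and Socs6 no longer counted as lower, against 1.93% of all genes. At an adjusted p below 0.05, Socs4 also counted as higher, with 16.2% of all genes higher and 10.4% lower. In bulk RNA, fewer cells of a type and less RNA per cell cannot be told apart, so each value is an average over the harvested cells.

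**Figure D1:**
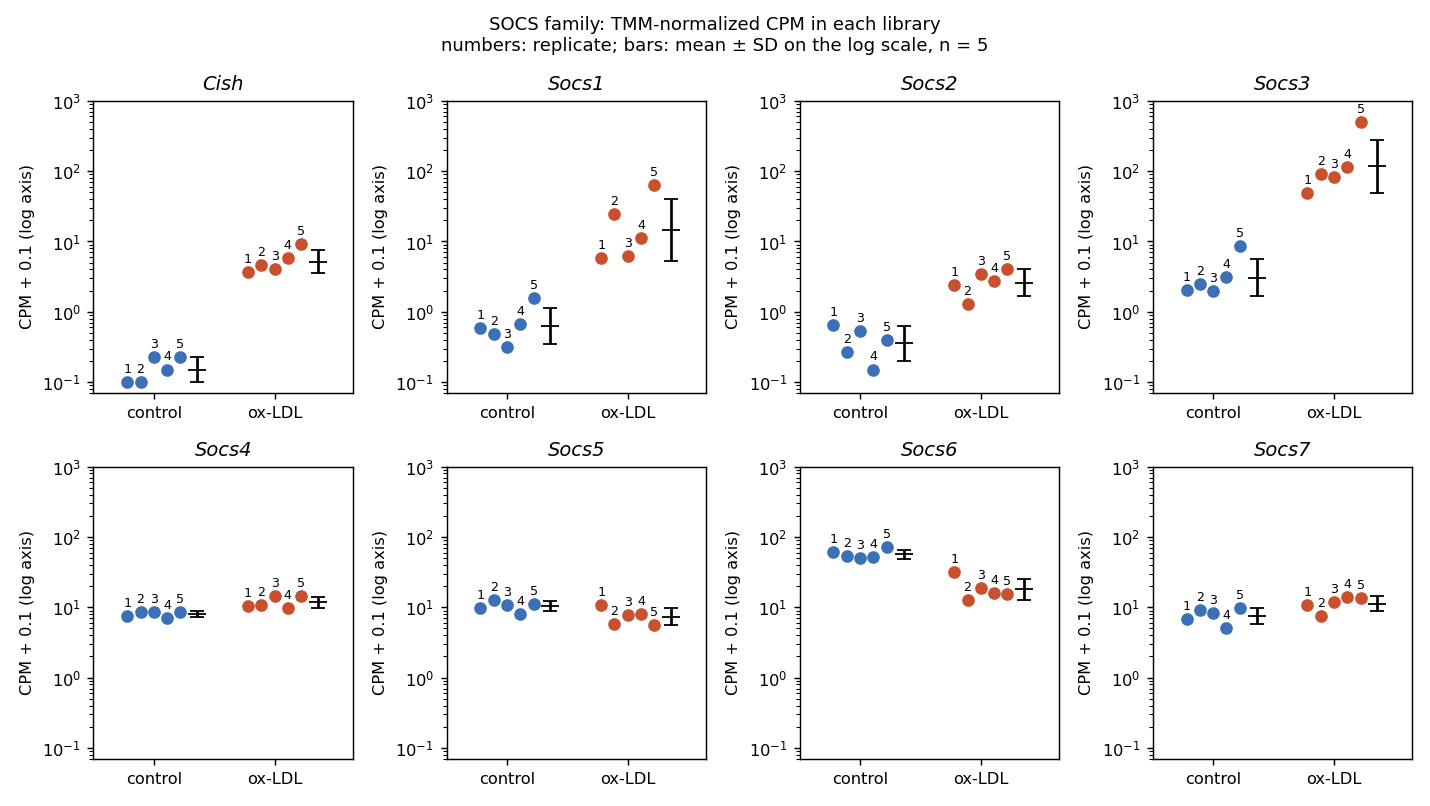
Normalized read counts (CPM, scaled to library depth by TMM, plus 0.1, on a log axis) of the 8 SOCS family genes in each control (blue) and ox-LDL (red) library, with the replicate number above each point and the mean ± SD on the log scale (n = 5) beside each group. Every ox-LDL library lay above every control library for Cish, Socs1, Socs2 and Socs3, and every ox-LDL library lay below every control library for Socs6.

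The next 3 sequences are shown because they lie at the start sites of 3 of the members that rose and hold letters that STAT or interferon-regulated factors are known to bind. They are RefSeq promoter windows of build GRCm38.p6, from 250 bases before to 50 bases after the start site, printed 5′ to 3′ on the strand of the gene. Capitals mark matches to TTCNNNGAA, a STAT site, in the Cish and Socs3 windows and to the core of an interferon response element (GAAA, any 2 bases, GAAA) in the Socs1 window. The windows are chr9:107296409-107296708 on the plus strand for Cish, chr16:10785487-10785786 on the minus strand for Socs1 and chr11:117969317-117969616 on the minus strand for Socs3.
Cish: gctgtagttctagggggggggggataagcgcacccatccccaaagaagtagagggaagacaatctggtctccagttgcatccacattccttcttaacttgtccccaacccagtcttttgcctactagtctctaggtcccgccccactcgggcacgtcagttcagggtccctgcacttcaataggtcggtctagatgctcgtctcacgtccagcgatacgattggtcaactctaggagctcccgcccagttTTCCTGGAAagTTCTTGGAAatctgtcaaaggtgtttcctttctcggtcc
Socs1: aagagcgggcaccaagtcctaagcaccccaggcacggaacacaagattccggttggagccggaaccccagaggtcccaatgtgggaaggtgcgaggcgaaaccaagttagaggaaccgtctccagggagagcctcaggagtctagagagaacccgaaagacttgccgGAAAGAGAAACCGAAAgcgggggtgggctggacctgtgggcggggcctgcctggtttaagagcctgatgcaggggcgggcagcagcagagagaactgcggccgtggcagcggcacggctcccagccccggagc
Socs3: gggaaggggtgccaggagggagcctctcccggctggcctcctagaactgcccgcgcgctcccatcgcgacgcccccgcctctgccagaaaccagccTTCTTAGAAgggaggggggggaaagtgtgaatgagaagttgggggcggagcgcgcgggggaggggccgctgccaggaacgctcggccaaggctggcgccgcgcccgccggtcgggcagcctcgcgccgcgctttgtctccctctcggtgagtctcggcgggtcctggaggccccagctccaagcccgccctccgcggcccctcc
In the Cish window the STAT letters occurred at 2 places, beginning at bases 1 and 12 after the start site. In the Socs1 window the interferon core occurred at 2 overlapping places, beginning 83 and 77 bases before the start site (positions -83 and -77). In the Socs3 window the STAT letters occurred once, at position -154. Of 32851 RefSeq mouse promoter windows of the same length, searched on both strands, 8.3% held at least 1 STAT match and 0.457% held 2 or more, while 3.44% held at least 1 interferon core and 0.225% held 2 or more. No match to an NF-kB site (in 8.46% of windows) or to the AP-1 letters TGANTCA (in 7.81%) lay in these windows, and none of the 4 motifs lay in the Socs4 window. A match describes letters only, and binding was not measured. Windows were matched for 4 of the 8 members and not for Socs2, Socs5, Socs6 and Socs7.

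Cish and Socs2 form the branch of the family tied most closely to STAT5, the factor used by growth hormone, prolactin, GM-CSF and IL-2. Cish, on chromosome 9 (mm9, 107198357 to 107205115, plus strand; gene ID 12700), encodes CIS, the founding member, which docks on activated receptors. Its deposited estimated counts were 0, 0, 3, 1 and 3 in control replicates 1 to 5 and 82, 53, 82, 120 and 153 in ox-LDL replicates 1 to 5. Scaled to library depth (CPM), these were 0, 0, 0.128, 0.0515 and 0.130 CPM in the controls and 3.57, 4.54, 4.00, 5.74 and 9.14 CPM in the ox-LDL libraries. Cish was thus close to undetected in all control libraries and present in all ox-LDL libraries, and the groups did not overlap. The mean was 0.0620 ± 0.0649 CPM (SD, n = 5) in the controls and 5.40 ± 2.25 CPM (SD, n = 5) after ox-LDL. The fitted log2 fold change was 6.25 (SE 0.60, edgeR adjusted p = 3.20e-05). With so few control reads the size is loosely bounded: pooled over libraries, 7 control counts stood against 490 ox-LDL counts, a depth-corrected ratio of 80.9 with an exact 95% interval of 39.0 to 202 that covers counting error only. The annotated antisense transcripts Gm17040 and Gm17041 overlap Cish, and because the strand used in counting was not stated, their reads cannot be told apart from those of Cish.

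Socs2, on chromosome 10 (94847996 to 94879814, minus strand; gene ID 216233), is known for restraining growth hormone signalling. It was at 0.553, 0.171, 0.428, 0.0515 and 0.304 CPM in control replicates 1 to 5 and at 2.30, 1.20, 3.32, 2.68 and 4.00 CPM in ox-LDL replicates 1 to 5. The lowest ox-LDL library was replicate 2 and the highest control library was replicate 1, and the groups did not overlap. The mean rose from 0.302 ± 0.199 to 2.70 ± 1.06 CPM (mean ± SD, n = 5 in each group), with a fitted log2 fold change of 3.15 (SE 0.51, edgeR adjusted p = 0.000877). Its counts ran from 1 to 10 in the controls and from 14 to 68 in the ox-LDL libraries, so both Cish and Socs2 were scarce transcripts even where they were highest.

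Socs1 and Socs3 are the members with the kinase inhibitory region. Socs1, on chromosome 16 (10783901 to 10785629, minus strand; gene ID 12703), was at 0.498, 0.385, 0.214, 0.567 and 1.48 CPM in control replicates 1 to 5. In ox-LDL replicates 1 to 5 it was at 5.74, 24.7, 6.10, 11.1 and 63.5 CPM. Every ox-LDL library exceeded every control library, with replicate 5 the highest in both groups. The mean was 0.628 ± 0.493 CPM in the controls and 22.2 ± 24.3 CPM after ox-LDL (SD, n = 5 per group), and the fitted log2 fold change was 5.12 (SE 0.80, edgeR adjusted p = 7.12e-04). The ox-LDL libraries themselves spread 11.1-fold from lowest to highest, so the direction was uniform and the size was not. The ratio of means was 35.4, fell to 18.9 without ox-LDL replicate 5 and was 53.4 without control replicate 5.

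Socs3, on chromosome 11 (117827393 to 117831361, minus strand; gene ID 12702), was at 1.94, 2.35, 1.88, 3.04 and 8.43 CPM in control replicates 1 to 5 and at 49.1, 92.2, 82.3, 116 and 506 CPM in ox-LDL replicates 1 to 5. As for Socs1, replicate 5 was the highest library in either group, and the groups did not overlap. The mean was 3.53 ± 2.78 CPM in the controls and 169 ± 190 CPM after ox-LDL (SD, n = 5 per group), and the fitted log2 fold change was 5.58 (SE 0.77, edgeR adjusted p = 0.000322). The ratio of means was 47.9 and depended on replicate 5, being 24.0 without ox-LDL replicate 5, 73.4 without control replicate 5 and 36.8 without both, the last of these chosen after the data were seen. The call remained in every fit that left out 1 library, with log2 fold changes from 4.58 to 6.19 for Socs3 and from 4.24 to 5.73 for Socs1.

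**Figure D2:**
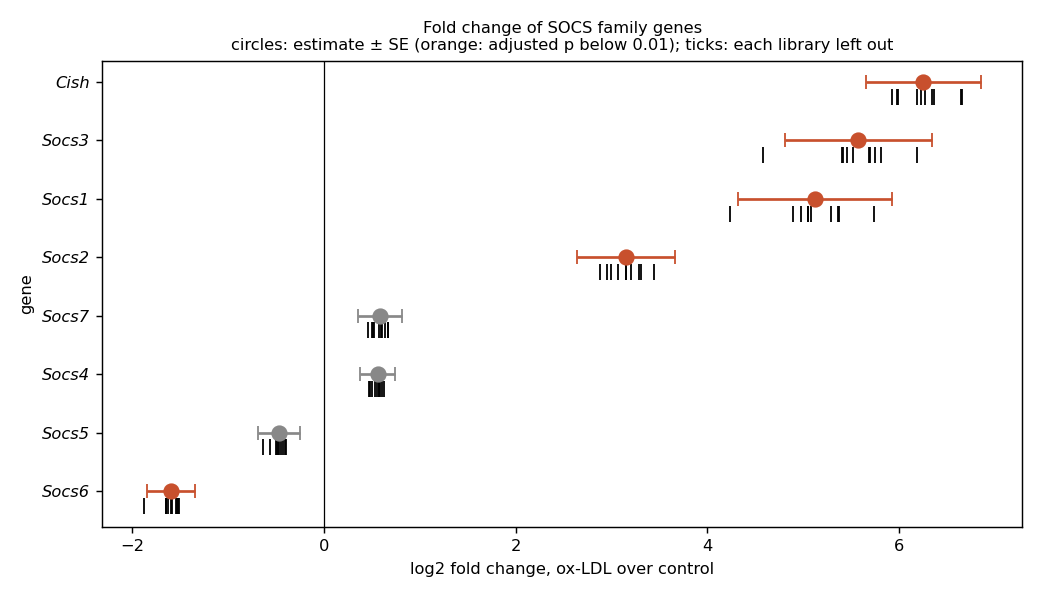
Log2 fold change (ox-LDL minus control) of each SOCS family gene, as circles with bars of 1 SE (orange for called genes) and, beneath, a tick for each fit that left out 1 library. Cish, Socs3, Socs1 and Socs2 lie above 0 from 6.25 down to 3.15, Socs6 lies at -1.60, and the other 3 lie within 0.58 of 0.

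Socs6 moved the other way. The gene, on chromosome 18 (88834616 to 89096873, minus strand; gene ID 54607), encodes a protein known to bind the insulin receptor pathway and the receptor tyrosine kinases KIT and FLT3. It was at 61.4, 53.3, 50.2, 51.1 and 70.8 CPM in control replicates 1 to 5 and at 32.1, 12.7, 18.8, 15.7 and 15.2 CPM in ox-LDL replicates 1 to 5. All ox-LDL libraries lay below all control libraries, with replicate 1 the least lowered. The mean was 57.4 ± 8.69 CPM in the controls and 18.9 ± 7.69 CPM after ox-LDL (SD, n = 5 per group), and the fitted log2 fold change was -1.60 (SE 0.25, edgeR adjusted p = 0.000714). The mean of the controls was 3.04 times that of the ox-LDL libraries, and the log2 fold change stayed between -1.88 and -1.52 when single libraries were left out.

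Socs4, Socs5 and Socs7 did not pass the test. Socs4 and Socs5, which are known to act on the epidermal growth factor receptor, form a pair with long N-terminal regions. Socs4, on chromosome 14 (47896606 to 47915773, plus strand; gene ID 67296), was at 7.52, 8.56, 8.60, 6.95 and 8.60 CPM in the controls and at 10.3, 10.7, 14.3, 9.71 and 14.3 CPM in the ox-LDL libraries. The groups did not overlap, but the log2 fold change of 0.56 (SE 0.18, edgeR adjusted p = 0.0376) did not pass the call and would pass at 0.05. Socs5, on chromosome 17 (87507019 to 87536923, plus strand; gene ID 56468), was at 9.79, 12.5, 10.7, 7.98 and 11.1 CPM in the controls and at 10.7, 5.65, 7.75, 7.85 and 5.55 CPM in the ox-LDL libraries. Its groups overlapped through ox-LDL replicate 1, and the log2 fold change was -0.47 (SE 0.22, edgeR adjusted p = 0.136). Socs7, on chromosome 11 (97223865 to 97259856, plus strand; gene ID 192157), whose product binds the adaptor NCK, was at 6.64, 8.94, 8.13, 5.05 and 9.56 CPM in the controls and at 10.7, 7.45, 11.9, 13.7 and 13.6 CPM in the ox-LDL libraries. Only ox-LDL replicate 2 fell within the range of the controls, and the log2 fold change was 0.58 (SE 0.23, edgeR adjusted p = 0.0825).

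For single genes, the 2-sided exact permutation test over all arrangements of the libraries gave p = 0.00794, the smallest value that 5 against 5 allows, for each of the 6 members whose groups did not overlap. Of all genes tested, 11.6% did not overlap with ox-LDL higher, as did 5 members, and 9.11% did not overlap with ox-LDL lower, as did 1 member. For Socs5 and Socs7 the same exact permutation test gave p = 0.0397 each, unadjusted.

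Levels of different genes were compared on the FPKM scale, which divides by transcript length. The length implied by count and FPKM differed by up to 1.39-fold between libraries for Socs7, 1.33-fold for Socs5 and at most 1.16-fold for the other members (libraries with at least 20 counts). In the controls, Socs6 led the family at 16.5 ± 3.44 FPKM (SD, n = 5), followed by Socs4 at 3.80 ± 0.630, Socs5 at 2.83 ± 0.773, Socs3 at 1.49 ± 1.26, Socs7 at 1.46 ± 0.642, Socs1 at 0.618 ± 0.532, Socs2 at 0.15 ± 0.0787 and Cish at 0.044 ± 0.0590 FPKM. In that order only Socs6 and Socs4 were neighbours whose libraries did not overlap. After ox-LDL the order became Socs3 at 57.8 ± 59.6 FPKM (SD, n = 5), Socs1 at 16.9 ± 17.9, Socs4 at 5.04 ± 1.57, Socs6 at 4.91 ± 2.73, Socs5 at 1.97 ± 0.792, Socs7 at 1.84 ± 0.764, Cish at 1.79 ± 0.719 and Socs2 at 1.19 ± 0.511 FPKM. All neighbours in the ox-LDL order overlapped over the libraries, although within each library Socs3 exceeded Socs1 in 5 of 5. Cish and Socs2, despite log2 fold changes of 6.25 and 3.15, thus remained at the bottom of the order, and Socs4, which did not pass the test, was next in mean after Socs1.

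The make-up of the family was described by the share of each member in its summed FPKM, which is a description and carries no test. The sum ran from 20.9 to 37.7 FPKM in the controls and from 41.3 to 227 FPKM in the ox-LDL libraries. Socs6 made up 61.8 ± 3.66% (SD, n = 5) of the sum in the controls, between 58.9% and 67.2% in each library, and 7.79 ± 6.35% after ox-LDL, between 1.57% and 18.1%. Socs3 made up 5.09 ± 2.84% in the controls and 57.2 ± 10.6% after ox-LDL, between 44.3% and 71.6%. Socs1 went from 2.14 ± 1.25% to 17.8 ± 8.87%. Cish and Socs2 stayed small, at 2.38% and 1.64% of the sum in the ox-LDL libraries on average. The mean shares of Socs4 (14.4% to 7.41%), Socs5 (10.5% to 3.12%) and Socs7 (5.27% to 2.65%) were also lower after ox-LDL, but a share falls whenever another member rises and does not give the direction of a level.

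**Figure D3:**
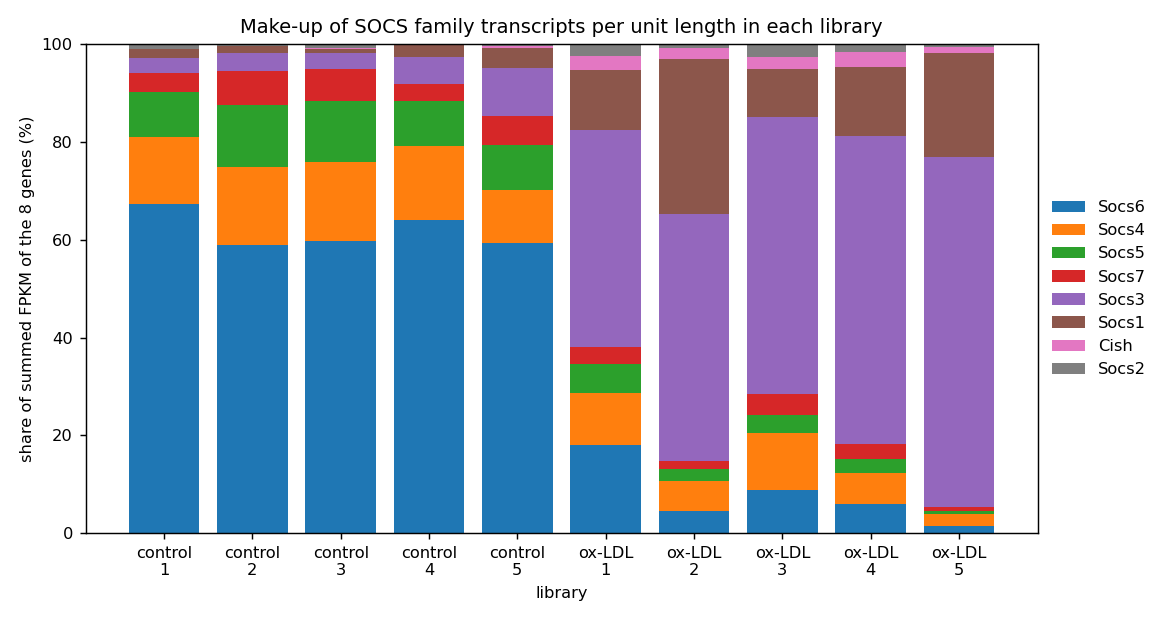
Share of each SOCS family gene (percent, stacked from 0 to 100) in the summed FPKM of the family, 1 bar for each of the 5 control and 5 ox-LDL libraries. Socs6 fills 58.9% to 67.2% of every control bar, and Socs3 fills 44.3% to 71.6% of every ox-LDL bar.

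The closest relatives within the family were then compared within each library, where the ratio of 2 counts (each plus 0.5) does not depend on how libraries are scaled, and a pair was called at an adjusted p below 0.05. The log2 ratio of Cish to Socs2 went from -2.05 ± 1.74 in the controls to 1.01 ± 0.61 after ox-LDL (SD, n = 5 each), a difference of 3.06 (exact permutation test, p = 0.00794, adjusted p = 0.0106 over 4 pairs). Socs2 was thus on average the more counted gene of the pair in the controls and Cish after ox-LDL, although the control ratios rest on few reads and in control replicate 4 each gene had a count of 1. On the FPKM scale with 0.1 added, the difference was 1.43 (exact permutation test, adjusted p = 0.0106). The log2 ratio of Socs4 to Socs5 went from -0.36 ± 0.13 to 0.68 ± 0.56 (SD, n = 5 each), a difference of 1.04 (exact permutation test, adjusted p = 0.0106), although neither gene was called on its own. The log2 ratio of Socs6 to Socs7 went from 2.92 ± 0.34 to 0.67 ± 0.58 (SD, n = 5 each), a difference of -2.25 (exact permutation test, adjusted p = 0.0106). For Socs1 over Socs3 the log2 ratio was -2.47 ± 0.40 in the controls and -3.02 ± 0.69 after ox-LDL (SD, n = 5 each), and the difference of -0.56 did not pass (exact permutation test, adjusted p = 0.167). Without ox-LDL replicate 2, the ox-LDL library with the highest ratio, it was -0.84 (exact permutation test, adjusted p = 0.0317).

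**Figure D4:**
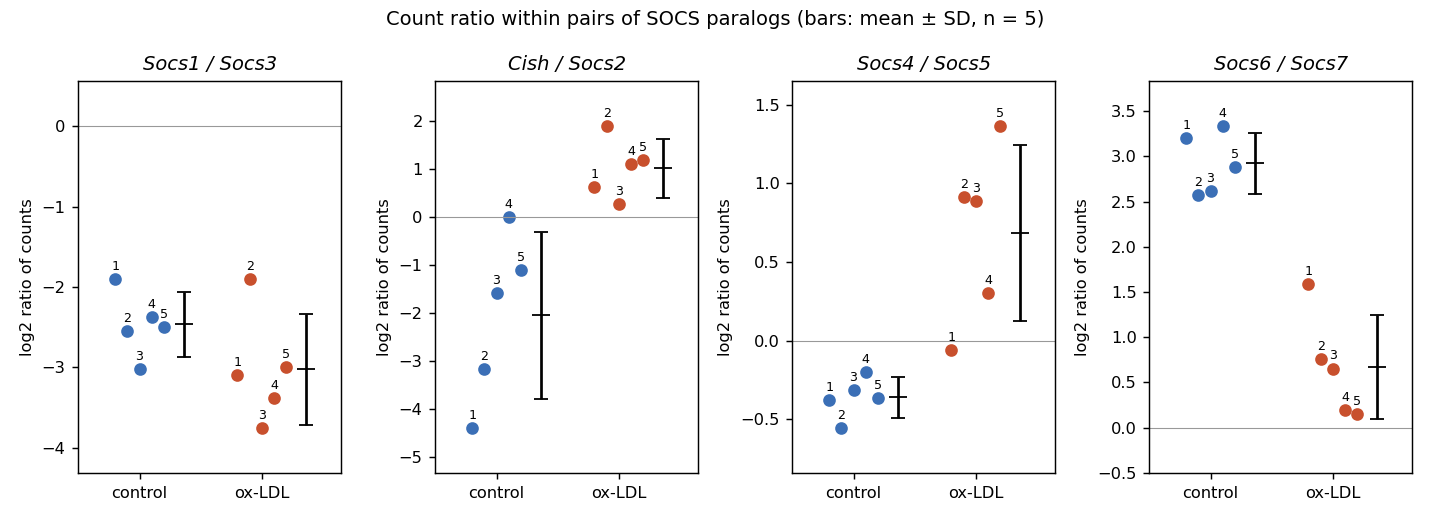
Log2 ratio of estimated counts within each library for 4 pairs of related SOCS family genes in control (blue) and ox-LDL (red) libraries, with the mean ± SD (n = 5) beside each group. The groups are separate for Cish over Socs2, Socs4 over Socs5 and Socs6 over Socs7, and they overlap for Socs1 over Socs3.

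The upstream parts of the pathway were read from lists of known genes, each counted by the same call, by which 9.4% of all genes were higher. Of 4 Janus kinases, 1 rose: Jak2, the kinase of the interferon-gamma and GM-CSF receptors, went from 25.0 ± 3.36 to 77.9 ± 17.1 CPM (SD, n = 5 each; edgeR adjusted p = 1.12e-04). Among the STAT factors, Stat2, a partner in type I interferon signalling, rose with a log2 fold change of 2.10 (SE 0.30), and Stat3, the factor of IL-6 and IL-10, with one of 1.85 (SE 0.34).

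Of 18 cytokine ligands, 9 had enough reads to be tested and 7 of these rose, beside 9.4% of all genes tested. Several had almost no control reads and were tested only because of their ox-LDL reads, so this count is partly set by the filter. With no filter 8 of 18 were called higher, and with at least 10 counts in every library 2 of 3. Il12a and Il12b, the subunits of IL-12, were at 0.0348 ± 0.0777 and 0.186 ± 0.358 CPM in the controls and at 15.04 ± 14.6 and 58.1 ± 69.5 CPM after ox-LDL (SD, n = 5 each). Ifng, which encodes interferon-gamma, went from 0.0434 ± 0.0971 to 8.99 ± 10.0 CPM (SD, n = 5 each). With controls this close to 0 the fitted folds depend on the prior count, and levels are given in their place. Il27 (log2 fold change 4.29), Osm (3.62) and Ebi3 (0.80) also rose, and the call for Osm was lost in 3 and that for Ebi3 in 8 of the 10 fits that left out 1 library. Il6, a classic inducer of Socs3 that was named after its values were seen, went from 0.0457 ± 0.0535 to 5.45 ± 3.82 CPM (SD, n = 5 each; edgeR adjusted p = 8.22e-05). T cell markers, a list of another source of Ifng, summed to 0.1 to 0.61 FPKM in the controls and 0 to 0.44 FPKM in the ox-LDL libraries. Which cells gave the Ifng reads was not tested.

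Receptor chains moved both ways, with 10 of 23 tested higher and 4 lower, beside 9.4% and 5.35% of all genes. The count higher was 6 with library size alone and 4 of 19 tested in the FPKM fits. Il12rb1 and Ghr were tested only because of their ox-LDL reads, so this count is partly set by the filter. It was 7 of 19 with at least 10 counts in every library and 11 of 25 with no filter. Of the calls, Csf2rb, Ifnar2, Il21r, Ghr and Il27ra, listed here for this reason after their values were seen, were each lost in 6 to 8 of the 10 fits that left out 1 library. Il12rb1, a chain of the IL-12 receptor, rose from 0.0348 ± 0.0777 to 3.00 ± 1.35 CPM (SD, n = 5 per group). Il15ra and Osmr, chains of the receptors for IL-15 and oncostatin M, rose by log2 fold changes of 3.78 (SE 0.37) and 2.92 (SE 0.45). Il6ra, the IL-6 binding chain, had a log2 fold change of -1.81 (SE 0.23), Ifngr1, the interferon-gamma binding chain, one of -1.66 (SE 0.21) and Il10rb, a chain of the IL-10 receptor, one of -1.35 (SE 0.24). The calls of Il12rb1, Il15ra, Osmr, Il6ra, Ifngr1 and Il10rb held in each fit that left out 1 library.

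The lists nearest to the SOCS box were counted in the same way, beside 14.7% of all genes called in either direction. Of 9 ubiquitin ligase partners tested, 2 rose: Cul2, the scaffold used by the VHL-type boxes, had a log2 fold change of 1.07 (SE 0.17) and Arih2, a ligase that works with Cullin-5, one of 0.73 (SE 0.17), whose call was lost in 7 of the 10 fits that left out 1 library. Neither call held with library size alone or in the FPKM fits, where 0 of the 9 partners were called higher, and 1 was called with upper-quartile factors, with no filter and with the replicate block. The other 7 had log2 fold changes from -0.33 to 0.73 and did not pass. Of 15 tested genes for other SOCS box proteins, Asb11 (log2 fold change 3.57, SE 0.54, from few reads) and Spsb1 (2.71, SE 0.58, lost in 4 of 10 such fits) rose and Wsb2 fell (-1.22, SE 0.19). With at least 10 counts in every library 0 of 11 such genes were called higher, and in the FPKM fits 0 of 10. The median log2 fold change of those 15 genes was 0.04, beside 1.87 for the 8 SOCS family genes. The family median falls in the gap between Socs7 (0.58) and Socs2 (3.15) and is not a typical value.

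Inhibitors that act beside SOCS proteins were counted next, beside 9.4% of all genes called higher and 5.35% lower. The counts of these short lists were not tested against those shares. Of 11 other JAK-STAT inhibitors, 2 rose: Usp18, which blunts type I interferon receptors, had a log2 fold change of 2.17 (SE 0.48) and Ptpn2, a phosphatase of JAKs and STATs, one of 1.31 (SE 0.28), and each call was lost in 6 of the 10 fits that left out 1 library. With library size alone, and in the FPKM fits, 1 of the 11 was called higher. Of 15 inhibitors of TLR and NF-kB signalling, 11 rose, and 7 did on log2(FPKM + 0.1). Nfkbia and Nfkbie, which encode inhibitors that hold NF-kB in the cytoplasm, had log2 fold changes of 3.20 (SE 0.36) and 2.92 (SE 0.44), and Il1rn, the IL-1 receptor antagonist, one of 2.43 (SE 0.44). The smallest of the 11 were Dusp1 (1.72, SE 0.38), Tnip3 (1.64, SE 0.23) and Tnip1 (1.60, SE 0.36), of which Dusp1 lost its call in 8 and Tnip1 in 7 of the 10 fits. Of 7 tested receptor tyrosine kinases and adaptors that Socs4 to Socs7 are known to bind, edgeR called 0 at an adjusted p below 0.01. At an unadjusted p below 0.05 the count was 1 (Egfr, log2 fold change 1.63, edgeR adjusted p = 0.0333), DESeq2 called 1 and limma-voom called 0.

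Known targets of the STATs were the last group of lists, counted beside 9.4% of all genes called higher and 5.35% lower. The STAT3 list shares genes with the receptor chain and feedback inhibitor lists, and Osm of the STAT5 list is also a listed cytokine ligand. A place on a list does not show which factor moved a gene, and this was not tested. Of 9 STAT3 targets, 7 rose, led by Fpr2 (7.26, SE 0.61), Saa3 (3.29, SE 0.72, lost in 5 of 10 fits) and Nfil3 (3.02, SE 0.35). Of 6 tested STAT5 targets, 4 rose, namely Ccl22 (4.23, SE 0.83, lost in 2 of 10 fits), Osm, Ccnd2 (2.61, SE 0.48) and Pim1 (2.02, SE 0.35), Pim1 being on the STAT3 list as well, while limma-voom called 2 of 6 and log2(FPKM + 1) 2 of 5. Of 8 tested STAT6 targets, Ccl24 rose (2.55, SE 0.55, lost in 6 of 10 fits) and 3 fell, namely Clec10a (-3.83, SE 0.43), Pparg (-2.45, SE 0.24) and Mrc1 (-2.24, SE 0.28). Mean Ccl24 and Ccnd2 were 0.510 and 0.569 CPM in the controls, and mean Clec10a was 0.437 CPM after ox-LDL. Genes this low in 1 group pass mostly through the other, so these counts are partly set by the filter. With at least 10 counts in every library, 3 of 5 STAT5 targets were called higher. Of 4 STAT6 targets, 0 were then called higher and 2 lower. The list medians were 2.35 for STAT3, 2.31 for STAT5 and -0.23 for STAT6 targets, beside 0.10 for all genes.

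**Figure D5:**
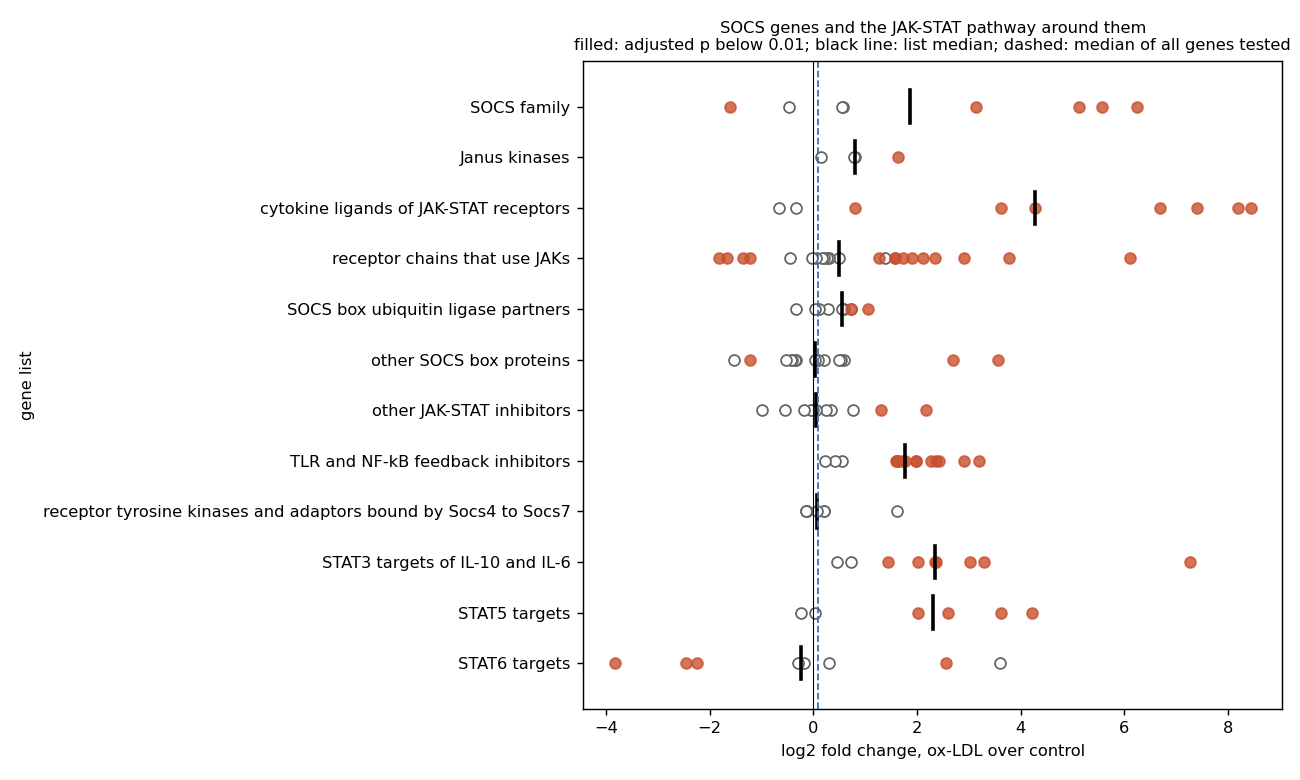
Log2 fold change (ox-LDL minus control) of each tested gene, by list, with called genes filled, others open, a black line at the median of each list and a dashed line at the median of all genes. The SOCS family spreads from -1.60 to 6.25, the TLR and NF-kB feedback inhibitors have a median of 1.77, and the other SOCS box proteins have a median of 0.04.

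The genes whose pattern over the 10 libraries was most like that of each member were found by the root mean square difference of log2 CPM, centred on each gene's own mean. The difference between groups was not removed, so closeness partly restates the fold changes given above. For Socs3 these were Zmynd15 (0.388), Cd38 (0.526) and Hspa1a (0.571). For Socs1 they were Gm8909 (0.480), Socs3 (0.576) and Upp1 (0.581), so that its relative Socs3 was the second closest of 554 genes compared. For Cish they were Gm4841 (0.589), A530046M15Rik (0.667) and Cst7 (0.717), and for Socs2 Gm21451 (0.553), C1rl (0.564) and Hspb8 (0.580). For Socs6 they were Calhm2 (0.153), Ap1s2 (0.187) and Galnt4 (0.196). The closest to Socs4, Socs5 and Socs7 were Mettl16 (0.0999), Marchf8 (0.116) and Fzd5 (0.0878).

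The libraries held 20094647 to 20687289 estimated counts in the controls and 19257131 to 20358017 after ox-LDL, so depth was even, while the TMM factor of ox-LDL replicate 2 was the lowest at 0.593. All 8 macrophage markers were present, with summed levels of 20002 to 37741 FPKM in the controls and 10852 to 25017 FPKM after ox-LDL, most of it Lyz2. Mean Lyz2 was 25811 FPKM in the controls and 12773 FPKM after ox-LDL. Mean Itgam was also lower after ox-LDL (73.9 and 39.95 FPKM). Means of Adgre1 (95.7 and 374.9 FPKM), Cd14 (59.3 and 241 FPKM) and Csf1r (49.3 and 75.8 FPKM) were higher. So were those of Cd68 (1461.1 and 1691.5 FPKM), Fcgr1 (40.7 and 49.7 FPKM) and Mertk (9.20 and 12.8 FPKM). By the edgeR call, 2 of the 8 were higher and 0 lower. Of 8 neutrophil markers 7 were in the table, and their sum was 24.1 to 53.6 FPKM in the controls and 50.5 to 330 FPKM after ox-LDL, nearly all of it S100a8 (means of 38.3 and 207 FPKM). Of the other neutrophil markers, mean Camp was 0.044 FPKM in the controls and 0.972 FPKM after ox-LDL, mean Ngp 0.02 and 0.132 FPKM, and Mpo and Elane were at most 0.07 FPKM in any library. Mean S100a9 went the other way, from 0.202 to 0.128 FPKM, as did mean Retnlg, from 0.91 to 0.586 FPKM. The dendritic cell list summed to 0.28 to 0.71 FPKM in the controls and 1.04 to 1.61 FPKM after ox-LDL. The mesothelial and stromal list summed to 1.08 to 4.32 and 1.6 to 8.98 FPKM. Means of its stromal markers were higher after ox-LDL: Col1a1 (0.442 and 2.68 FPKM), Pdgfra (0.666 and 1.90 FPKM) and Col3a1 (0.466 and 0.614 FPKM). Of its mesothelial markers, Upk3b (0.292 and 0.046 FPKM), Lrrn4 (0.13 and 0.03 FPKM) and Krt19 (0.452 and 0.372 FPKM) were lower in mean. Mean Msln was nearly level (0.056 and 0.06 FPKM). The eosinophil and mast cell list summed to 1.45 to 8.21 and 0.32 to 2.78 FPKM. The part of the neutrophil, dendritic, stromal and eosinophil lists in the SOCS values was not tested. Control replicate 5 carried more Socs3 and Socs1 than the other controls, 8.43 against 1.88 to 3.04 CPM and 1.48 against 0.214 to 0.567 CPM. With control replicate 5 and ox-LDL replicate 2 both left out, the log2 fold changes were 6.70 for Cish, 5.68 for Socs1, 3.31 for Socs2, 6.33 for Socs3 and -1.43 for Socs6, and these 5 members were again called.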

How the data were processed

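RNA was sequenced on a BGISEQ-500 instrument. Per the labels, the authors processed reads against mouse build mm9, and their processing notes name FastQC, HISAT2 2.0.5, SAMtools 1.4 and StringTie. The strand setting was not given in the sources used here. The authors deposited estimated counts per gene, of which 13.6% were not whole, and values taken to be FPKM because counts divided by them gave the median gene a near-constant length across libraries (coefficient of variation 1.90%).

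Counts were rounded, 9788 circular rows were left out, and genes passing filterByExpr were fitted over all 10 libraries with edgeR 4.0.16 (R 4.3.3; TMM factors, robust quasi-likelihood F test, no covariate). FPKM served only to compare genes and in an alternative fit. Each group held 5 libraries, which the tests treat as independent replicates. The paper does not state whether each came from a different mouse. The median depth was 20238235 counts in the controls and 19691375 after ox-LDL. CPM are TMM-scaled. Alternatives used DESeq2 1.42.0, limma 3.58.1 (voom, and log2 of FPKM plus 1 or plus 0.1), other scalings, filters and thresholds, a replicate block, removal of a trend with length, and single libraries left out. Scripts were tested on simulated data. No 2 libraries were duplicates by a chi-square comparison of counts.

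All 8 members are described. Of every other list, at most the 3 highest and 3 lowest called genes are named. Some results of these lists are not reported here. Genes of like pattern are the 3 with the smallest distance to a member, among those whose absolute log2 fold change was at least 0.5 times as large (the closest alone for the 3 members not called). The members and lists were chosen with earlier results of these data known. Gene spans are from GENCODE vM1 on the mm9 assembly.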

Additional observations from a re-analysis of the deposited data

Results flagged for a closer look

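In 4 of the 26 groups of 5 libraries examined, 1 library stood apart by Dixon's criterion. Independent values with a normal spread meet it by chance in about 1 in 20 groups. CPM and summed FPKM were not put on a log scale for it, so that rate may not hold here. Socs3 in ox-LDL replicate 5 was at 506 CPM, and the next library was at 116 CPM. Socs3 in control replicate 5 was at 8.43 CPM, and the next control was at 3.04 CPM. Socs1 in control replicate 5 was at 1.48 CPM, and the next control was at 0.567 CPM. The summed level of the SOCS family in ox-LDL replicate 5 was 227 FPKM, and the next library was at 78.2 FPKM. Socs3 made up 71.6% of the sum in ox-LDL replicate 5, so this group is not independent of the Socs3 group.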

How the results depend on the processing

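The 5 SOCS family calls kept their direction in every alternative in which the gene was tested, and their call in all of these but 1: Socs6 was no longer called, leaving 0 members lower, when an absolute log2 fold change above 2 was also required. At an adjusted p below 0.05 Socs4 was called as well. Fewer members were called higher where a filter left fewer to test: 2 of 6 tested with limma on log2(FPKM + 1) and on log2(FPKM + 0.1), and 1 of 5 tested with at least 10 counts in every library. Counts over all genes moved more. Genes called higher numbered 570 and 553 in the 2 FPKM fits, 704 with library size alone, 2045 at an adjusted p below 0.05, 605 with the added fold threshold and 1843 with control replicate 5 and ox-LDL replicate 2 both left out. Genes called lower numbered 1244 with DESeq2, 1232 with the length trend removed, 1320 at an adjusted p below 0.05, 244 with the added fold threshold and 1483 with those 2 libraries left out. Without single libraries, genes called higher ranged from 826 to 1755 and lower from 436 (without control replicate 4, and 437 without ox-LDL replicate 3) to 1502 (without ox-LDL replicate 2), while the SOCS counts remained 4 higher and 1 lower. The cause of these shifts was not tested. The median log2 fold change of all genes moved by -0.14 with upper-quartile factors and by -0.19 with library size alone.

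With the replicate number as a block, 4 SOCS genes were higher and 1 lower, and 885 genes in all were higher and 549 lower. The labels do not state whether the numbers pair the libraries, and 5 correlations are too few to decide it. Correlations of deviations between same-numbered libraries were 0.03, -0.22, 0.40, -0.24 and 0.39, and only number 5 correlated best with its own. Under the block the exact sign-flip test, which cannot go below p = 0.0625 with 5 pairs, gave an adjusted p = 0.0833 for the differences in log2 ratio of 3.06 (Cish over Socs2), 1.04 (Socs4 over Socs5) and -2.25 (Socs6 over Socs7). Leaving out single libraries, the Socs1 over Socs3 difference ranged from -0.84 to -0.38. Depth limits Cish and Socs2 most, since their control counts were 0 to 3 and 1 to 10.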
